A study of Homo sapiens with 24 samples.

Results

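SW480 is a cell line grown from a human colorectal carcinoma, in which an inactivating mutation of *APC* keeps the WNT/β-CATENIN pathway switched on. The comparison described here is that of SW480 cell clones without *CTNNB1*, the gene of β-CATENIN, with SW480 clones that kept it, across all genes. All 8 SW480 libraries of the 24 in the series were used, with 4 from knock-out (KO) and 4 from wild-type (WT) clones. In the KO clones 17 and 21, exon 7 had been deleted on both alleles with a pair of guide RNAs and Cas9, which shifts the reading frame. The WT clones 4 and 5 had gone through the same Cas9 treatment and single-cell cloning and had an unedited sequence. Each KO or WT line is therefore 1 clone grown from 1 cell, and each clone was sequenced in 2 independent rounds, A and B. No clone received a further treatment, and the KO clones, which the study describes as senescent after prolonged culture, share the parental *APC* mutation with the WT clones. Genotype and clone cannot be fully told apart with 2 clones of each, so the changes were sought that hold in both KO clones.

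In the WNT pathway a destruction complex built on APC and AXIN proteins marks β-CATENIN for breakdown. When the complex fails, as in most colorectal carcinomas, β-CATENIN enters the nucleus, joins DNA-bound TCF/LEF factors and switches on target genes. Many of these targets encode feedback inhibitors of the pathway itself, and in the intestinal crypt the pathway maintains stem cells.

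The values are normalized counts, that is, sequencing reads per gene divided by 1 size factor per library, and between 25857212 and 28437413 reads per SW480 library had been assigned to genes. 16325 genes with at least 10 normalized counts in at least 4 of the 8 libraries were tested with limma on log2(normalized count + 1), the scale of all log2 fold changes given here. A gene was called where the Benjamini-Hochberg adjusted p was under 0.05 and the log2 fold change was over 1 in size. The epithelial markers *EPCAM*, *KRT8*, *KRT18* and *KRT19* were abundant in all libraries, and the sum of 12 colon epithelium markers was 153425 to 177506 in KO and 143086 to 198005 in WT libraries. Most of that sum came from *KRT8* and *KRT18*, so it says little about the other markers. *CDX2* had a mean of 106 in KO and 1097 in WT and was called lower in both KO clones. *EPCAM* had means of 818 and 1645 and was not called, nor were *HNF4A* and *VIL1*. Of those markers, *KRT20*, *CDH17*, *GPA33*, *CEACAM5* and *LGALS4* stayed under 10 normalized counts in every library, so that the label of a colorectal carcinoma line is met by general epithelial rather than mature colonocyte markers. Markers of immune cells summed to 272 to 615 in KO and 231 to 591 in WT libraries, with 2 of the 12 at 0 throughout.

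The targeted gene *CTNNB1* (ENSG00000168036, chromosome 3 from 41236232 to 41301587, plus strand, GRCh37) had 839, 840.4, 1106 and 1312 normalized counts in KO 17A, 17B, 21A and 21B, and 50939, 50569.5, 43114 and 43245 in WT 4A, 4B, 5A and 5B. All KO libraries were thus far below all WT libraries, and the KO mean was 2.18% of the WT mean (log2 fold change -5.54, SE 0.14, adjusted p = 2.5e-09). Reads of the remaining exons of a frame-shifted transcript still count toward the gene.

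Both KO clones shared most of what changed. Against the mean of the WT clones, KO 17 had 2942 called genes (18% of those tested) and KO 21 had 3224 (19.7%), where both KO clones are set against the same WT libraries and the error is the spread between rounds within clones. 2320 genes (14.2%) were called in both with the same direction, of which 1483 were higher (9.08%) and 837 lower (5.13%) in KO. The share called with genotype alone was 17.5%, with 10.7% higher and 6.76% lower, and 81.2% of those calls held in both clones. That fit treats both rounds of a clone as replicates, and its 2852 calls became 2568 with the clone as a random effect and 2402 with the reads of each clone summed. The 4 KO and the 4 WT libraries did not overlap for 2291 of the 2320 genes, beside 46.2% of all genes tested.

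The shared changes had similar median sizes in both clones, which follows in part from choosing genes called in both against the same WT libraries. The median absolute log2 fold change of the 2320 genes was 2.09 in KO 17 and 2.11 in KO 21, and 1489 genes (64.2%) had values within 0.5 of each other. Their median absolute difference between the KO clones was 0.35, beside 0.24 for all genes tested. Genes that were higher had a median of 41.4 normalized counts in WT and 237 in KO, and genes that were lower a median of 166 in WT and 29 in KO. A call for a rise favours genes that are low in WT, and a call for a fall genes that are low in KO. The median WT level of all genes tested was 434. Changes beyond 5 on the log2 scale were found for 96 of the genes that rose and 82 of those that fell. 101 of the risen genes had at most 3 reads in every WT library, and 63 of the fallen genes had at most 3 in every KO library. For such genes the log2 fold change depends on the added count of 1 and gives no size, and among those named below they are *COL17A1*, *FST*, *GPR39*, *ITGAM*, *ITGB3*, *NRCAM*, *THRB* and *WNT7B* in WT, and *ASCL2*, *COL1A2*, ENSG00000213981, *FGF20*, *MUC16* and *MUCL1* in KO. The filter also admits a gene through 1 genotype alone, and 1449 of the 2320 genes had at least 10 normalized counts in every library. A list member silent in WT is therefore tested only where it is high in KO, and the reverse holds for falls. Shares of risen or fallen members among those tested are fixed in part by this. Each count of list members below stands beside 9.08% of all genes tested that rose in both KO clones and 5.13% that fell. The libraries keep no strand, so that reads of overlapping genes on opposite strands cannot be told apart, and 116 of the 232 tested genes named below have such a partner. Protein-coding genes made up 1236 of the higher and 649 of the lower genes, and long non-coding RNAs 173 and 130.

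Genes that hold the WNT pathway in check, and the other known WNT targets, were the first group examined. Of 13 feedback genes tested, 8 fell and 1 rose in both KO clones, and the median log2 fold change was -2.96, beside -0.0042 over all genes tested. *NKD1*, which encodes a cytoplasmic antagonist of the pathway, had 166, 149, 275 and 309 normalized counts in the KO libraries and 13438, 15425, 15104 and 14404 in the WT libraries (log2 fold change -6.08, SE 0.22, adjusted p = 2.5e-08). *AXIN2*, the scaffold of the destruction complex that is itself a target, had 357, 356, 455 and 591 in KO and 12213, 11629, 11143 and 11049 in WT (log2 fold change -4.74, SE 0.15, adjusted p = 6.7e-09). *RNF43*, a ubiquitin ligase that removes Frizzled receptors from the cell surface, had 366, 346, 373 and 393 in KO and 2455, 2484, 3326 and 3359 in WT (log2 fold change -2.96, SE 0.12, adjusted p = 2.4e-08). For all 3 genes every KO library lay below every WT library, with little spread between the rounds of a clone. *ZNRF3*, the relative of *RNF43*, fell by 2.36 on the log2 scale and *NKD2* by 3.4. *TNFRSF19*, a receptor of the TNF receptor family, fell by 5.55.

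The membrane-bound WNT antagonist *APCDD1* was among the genes with the greatest loss in absolute terms. It had 36104, 37079, 44293 and 39398 normalized counts in the WT libraries, 419 and 458 in KO 17 and 2108 and 2038 in KO 21. KO 17 minus KO 21 was -2.24 on the log2 scale (adjusted p = 8.6e-12), and both were below WT (log2 fold change -5.36, SE 0.56, adjusted p = 9.3e-05). *TRABD2A*, whose product cleaves WNT ligands, was the member that rose, with a log2 fold change of 1.19 (adjusted p = 7.9e-06). It overlaps *TMSB10* on the other strand, and reads of the overlap cannot be assigned to either gene. *SFRP5* and *SHISA2* were called with genotype alone but not in both clones, with log2 fold changes of -2.06 and -1.30, and the former lost its call without KO 21A (adjusted p = 0.054), without KO 21 as a whole (log2 fold change -0.96), without either WT clone (adjusted p 0.066 to 0.070) and with the clone as a random effect (adjusted p = 0.053). *KREMEN1* and *DKK1* did not pass, at -0.90 and 0.73. *DKK4*, an inhibitor of WNT receptors that was under the filter on low values, had 14.2, 7.35, 29 and 35.2 in the WT libraries and 0 in all KO libraries.

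Of 28 other genes listed as WNT targets and tested, 13 fell and 5 rose in both KO clones. *SP5*, a zinc-finger factor that represses WNT targets, had 7.52, 5.50, 14 and 28.8 normalized counts in KO and 3713, 3239, 4543 and 3682 in WT libraries (log2 fold change -8.23, SE 0.41, adjusted p = 2.7e-07). *ASCL2*, the transcription factor of intestinal stem cells, had 0, 0, 2.80 and 1.92 in KO and 297, 354, 654 and 469.8 in WT (log2 fold change -7.86, SE 0.47, adjusted p = 5.1e-07). *LEF1*, which is both a partner and a target of β-CATENIN, had 261, 230.3, 408 and 396 in KO and 3885, 3322, 3959 and 3323 in WT (log2 fold change -3.52, SE 0.18, adjusted p = 2.1e-07). In WT cells these 3 genes were well expressed, and in the KO clones the first 2 were reduced to 30 or fewer normalized counts in every library, whereas *LEF1* stayed above 200 in each. *NR2F1*, a nuclear receptor, had 208, 228, 305 and 303 in KO and 2896, 3092, 1990.4 and 2343 in WT (log2 fold change -3.30, SE 0.17, adjusted p = 1.8e-07). *BMP4*, a ligand of bone morphogenetic protein receptors, had 1513, 1291, 3028 and 2582 in KO and 7621, 7053, 8325 and 8590.0 in WT (log2 fold change -1.99, SE 0.25, adjusted p = 1.3e-04), with lower values in KO 17 than in KO 21. *ADAM19*, a membrane metalloprotease, had 1034, 1069, 1199.9 and 1284 in KO and 5971, 6245, 6309.9 and 6916 in WT (log2 fold change -2.47, SE 0.084, adjusted p = 8.6e-09).

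Not all WNT targets were called lower. *MYC*, which drives growth of colorectal tumors, had 3228, 3643, 3399.8 and 3758 normalized counts in KO and 6469, 6387, 5532 and 6045 in WT libraries, which did not overlap, but its log2 fold change of -0.80 (SE 0.075, adjusted p = 1.1e-05) was under the size a call required. *CCND1* at -0.48, *SOX9* at 0.25 and *TCF7L2* at 0.44 did not pass either. *TERT*, the catalytic subunit of telomerase, was under the filter and had 0, 0, 1.87 and 0.96 in KO and 9.10, 4.59, 7.72 and 6.85 in WT libraries. *LGR5* had at most 4.67 in any library, so that this stem cell marker carries no information here. The members that rose were *CD44* and *L1CAM*, adhesion molecules, *NRCAM*, a neuronal adhesion molecule, *VEGFA*, the vascular growth factor, and *PLAUR*, the urokinase receptor, with log2 fold changes of 1.30, 2.83, 3.45, 2.28 and 2.10. *CD44* had 17890.2, 18962, 14683 and 15728 in KO and 5982, 6629.9, 7115 and 7632 in WT libraries. *L1CAM* had 13209, 12879, 12632 and 12319.9 in KO and 1652, 1555, 2087 and 1952 in WT.

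**Figure D1:**
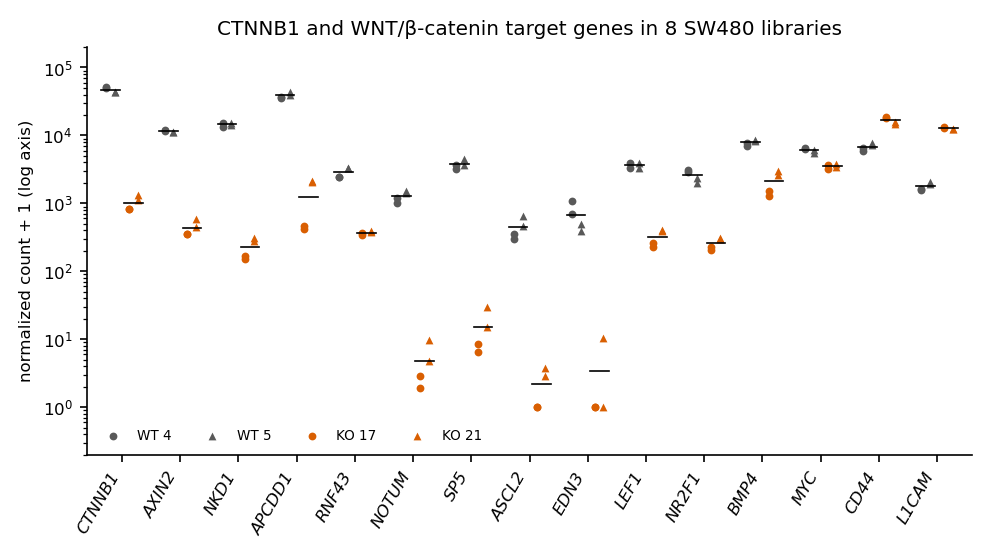
Normalized counts plus 1 on a log axis in the 8 SW480 libraries, with grey points for WT and orange points for KO libraries, circles and triangles for the clones, and a line at the mean of each genotype. From *CTNNB1* to *MYC* all KO libraries lie below all WT libraries, while *CD44* and *L1CAM* lie above.

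The promoters of *SP5* and *NR2F1* are shown because both genes fell in all KO libraries and both hold the core sequence that TCF/LEF factors recognize. The sequences are the 250 bases before the RefSeq start of each gene in GRCh38.p14, 5′ to 3′ on the strand of the gene, with CTTTGAT in capitals. For *SP5* this is chr2:170715087-170715336 on the plus strand and for *NR2F1* chr5:93582972-93583221 on the plus strand.
SP5: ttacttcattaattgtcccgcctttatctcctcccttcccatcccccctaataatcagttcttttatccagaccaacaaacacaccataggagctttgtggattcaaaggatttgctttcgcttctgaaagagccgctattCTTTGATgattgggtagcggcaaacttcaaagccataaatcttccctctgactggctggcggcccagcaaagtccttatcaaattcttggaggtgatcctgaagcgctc
NR2F1: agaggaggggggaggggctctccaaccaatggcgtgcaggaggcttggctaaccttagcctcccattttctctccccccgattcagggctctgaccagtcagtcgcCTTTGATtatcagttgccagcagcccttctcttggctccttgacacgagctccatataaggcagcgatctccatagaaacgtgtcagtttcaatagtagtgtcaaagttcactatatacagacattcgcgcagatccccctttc
The core begins 109 bases before the start in *SP5* and 144 bases before it in *NR2F1*. Searched on both strands, CTTTGAT was found in 3 of 14 promoters of the WNT lists that fell in both KO clones, the third being *FGF18*. The share was 2.07% of 532 promoters of all genes that fell in both, 1.31% of 11310 promoters of genes tested, and 2.26% of the 35116 promoters in the RefSeq table, which does not hold every gene. A match says only that the letters are present in this window.

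Of 15 tested TCF/LEF factors, with which β-CATENIN works, and their cofactors, 3 fell in both KO clones (20%, beside 5.13% of all genes tested) and none rose in both. Beside *LEF1* these were *TCF7*, with 1322, 1375, 838 and 852 normalized counts in KO and 2776, 2949, 3185 and 3362 in WT (log2 fold change -1.52, SE 0.17, adjusted p = 4.6e-05), and the corepressor *TLE3* (log2 fold change -1.45, SE 0.074, adjusted p = 1.5e-07). *TCF7L1* at -0.56 and *TCF7L2* at 0.44 were not called. Of 12 genes of the destruction complex, *AXIN2* alone was called in both (8.33%, beside 5.13% of all genes tested). *APC*, *AXIN1*, *GSK3B* and *CSNK1A1* had log2 fold changes of 0.084, -0.65, -0.038 and -0.07.

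WNT ligands and Frizzled receptors moved in both directions, with 6 lower and 5 higher of 23 tested (26.1% and 21.7%, beside 5.13% and 9.08% of all genes tested). *WNT6* fell by 4.16 on the log2 scale, *WNT5B* by 2.48, *WNT11* by 2.21 and *WNT16* by 2.13. *WNT7B* had 149, 136, 25.2 and 57.6 normalized counts in KO and 3.03, 0, 0 and 0.98 in WT libraries (log2 fold change 5.48, SE 0.63, adjusted p = 5.7e-05). *WNT7A*, *WNT9A* and *WNT10A* rose by 3.62, 3.05 and 2.27. *WNT7A* and *WNT7B*, close relatives that signal through the β-CATENIN branch in other tissues, were thus both higher in cells without β-CATENIN.

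β-CATENIN also links cadherins to the cytoskeleton at adherens junctions, and its closest relative *JUP* (γ-CATENIN) can take that place. *JUP* had 2352, 2271, 4015 and 3712 normalized counts in KO and 1331, 1377, 1425 and 1179 in WT libraries, a change called with genotype alone (log2 fold change 1.17, SE 0.18, adjusted p = 5.0e-04) and not in both clones, with 0.80 in KO 17 and 1.54 in KO 21. Of 19 junction genes, 4 fell and 1 rose in both (21.1% and 5.26%, beside 5.13% and 9.08% of all genes tested). The desmosomal cadherin *DSG2* had 12.2, 11.9, 358 and 333 in KO and 765, 804, 969 and 1065 in WT (log2 fold change -3.73, SE 1.18, adjusted p = 0.030), and KO 17 was far below KO 21. Its call was lost with DESeq2 and edgeR, at a log2 fold change of -2.36 (adjusted p 0.051 to 0.055), without either KO 17 library, WT 4B, WT 5A or WT 5B (adjusted p 0.052 to 0.078), without either WT clone (adjusted p 0.095 and 0.11), with the clone as a random effect (adjusted p = 0.062) and with the reads of each clone summed (adjusted p = 0.13). P-cadherin *CDH3* fell by 2.52, *NECTIN1* by 1.17 and desmoplakin *DSP* by 1.09, while vinculin *VCL* rose by 1.41. E-cadherin *CDH1* at -0.14 and α-catenin *CTNNA1* at -0.0022 were not called.

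The 8 largest falls and the 8 largest rises, among genes with a mean of at least 100 and no overlap of KO with WT libraries, all reached at least 6.15 on the log2 scale in size between any KO clone and any WT clone. The order is that of the fitted log2 fold change, which for 5 of the 16 genes, at the floor in a genotype, depends on the added count of 1. Those that fell were *EDN3*, *SP5*, *NOTUM*, *MUCL1*, *MUC16*, *MYH7B*, *SLC1A2* and the long non-coding RNA ENSG00000213981. *NOTUM*, an enzyme that inactivates WNT ligands, had 1.88, 0.92, 3.74 and 8.64 normalized counts in KO and 997, 1217, 1502 and 1423 in WT libraries. *EDN3*, the ligand endothelin 3, had 0, 0, 0 and 9.60 in KO and 686, 1083, 495 and 391 in WT. *MUC16*, a membrane mucin known as CA125, had 0, 0, 1.87 and 0.96 in KO and 337, 444, 634 and 547 in WT. Both the antagonist and the mucin were at or under 10 normalized counts in every KO library, and the single higher *EDN3* value was that of KO 21B. *MUCL1*, which encodes a small secreted mucin-like protein, had 0.94, 0, 0 and 0 in KO and 334, 318, 459 and 372 in WT. *SLC1A2*, a glutamate transporter, had 0, 4.59, 0.93 and 4.80 in KO and 495, 617, 828 and 865 in WT. ENSG00000213981 (chromosome 2 from 171496884 to 171551884, minus strand) lies across from *MYO3B* and not far from *SP5*, and had 0, 0, 0.93 and 0.96 in KO and 480.1, 538, 792 and 803 in WT. *MYH7B*, a myosin heavy chain, had 16, 17.4, 24.3 and 40.3 in KO and 4669.5, 5288, 9196 and 8105 in WT, and overlaps *GSS* and *TRPC4AP* on the other strand.

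The genes with the largest rises were *IL7R*, *ABLIM3*, *GPR39*, *IFI16*, *THRB*, *SAMD9L*, *PPARG* and *PCSK1*. *IL7R*, the receptor chain for interleukin 7, had 2012, 1894, 2039 and 1988 normalized counts in KO and 0, 0, 5.79 and 3.91 in WT libraries. *PPARG*, a nuclear receptor of lipid metabolism and epithelial differentiation, had 1591, 1617, 1191 and 1141 in KO and 8.09, 4.59, 6.76 and 6.85 in WT (log2 fold change 7.52, SE 0.19, adjusted p = 1.9e-09). *THRB*, a thyroid hormone receptor, had 499, 449, 471 and 482 in KO and 3.03, 1.84, 0.97 and 0 in WT. These 3 receptors were close to absent in WT cells, with under 10 normalized counts in every WT library, and had at least 449 in all 4 KO libraries. *IFI16*, a sensor of foreign DNA, had 2073, 2051, 1376 and 1391 in KO and 4.04, 4.59, 8.69 and 7.83 in WT (log2 fold change 7.91, SE 0.25, adjusted p = 5.6e-09). *GPR39*, a zinc-sensing receptor, had 323, 335, 337 and 378 in KO and 0, 0.92, 0 and 0.98 in WT. *PCSK1*, which cleaves prohormones, had 440.2, 436, 571 and 513 in KO and 1.01, 0, 3.86 and 6.85 in WT. *ABLIM3*, an actin-binding protein, had 1752 and 1766 in KO 17 and 790.0 and 866 in KO 21 and 1.01, 6.43, 6.76 and 1.96 in WT. KO 17 minus KO 21 was 1.09 and was not called by limma's test (adjusted p = 0.29). That test uses 1 variance per gene over all clones, so the scatter of the WT values near the floor enters it. The p-value thus does not show that the KO clones were alike.

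In absolute terms the largest losses beside *CTNNB1* were those of *KRT5*, *NSMF*, *SLC2A3* and *APCDD1*. *KRT5*, a basal keratin, had 27637, 27223, 23333 and 21171 normalized counts in KO and 110483, 105576, 79897 and 63523 in WT libraries (log2 fold change -1.83, SE 0.17, adjusted p = 1.5e-05). *NSMF*, a shuttling protein first described in neurons, had 6808, 6796, 7737 and 8011 in KO and 81139, 64223, 70288 and 64294 in WT (log2 fold change -3.25, SE 0.092, adjusted p = 2.8e-09). *SLC2A3*, the glucose transporter GLUT3, had 2365, 2066, 2898 and 2965 in KO and 44103, 45960.3, 33537 and 39423 in WT (log2 fold change -3.99, SE 0.13, adjusted p = 1.0e-08), with the reservation that its reads can be shared with the near-identical *SLC2A14*. Among the largest gains were those of *PLEC*, *TMSB4X*, *NT5E* and *ITGA3*. *NT5E*, the surface enzyme CD73 that makes adenosine, had 31253, 33050.1, 25187 and 27042 in KO and 883, 708, 843 and 1150.0 in WT (log2 fold change 5.04, SE 0.14, adjusted p = 3.5e-09). The cytoskeletal linker *PLEC*, the actin-binding *TMSB4X* and the integrin *ITGA3* rose by 1.67, 1.96 and 1.78 on the log2 scale from WT means of 15462 ± 308, 10882 ± 877 and 11103 ± 1667 (SD, n = 4).

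Interferon-stimulated genes, which cells switch on after sensing foreign nucleic acid or secreted interferon, rose together. Of 37 members tested, 22 rose and 3 fell in both KO clones, with a median log2 fold change of 1.32. *SAMD9L* and *DDX60* passed the filter only through their KO values, so the share of rises is fixed in part. *SAMD9L*, a restriction factor, had 824, 849, 602 and 665 normalized counts in KO and 1.01, 0, 8.69 and 5.87 in WT libraries (log2 fold change 7.74, SE 0.63, adjusted p = 6.5e-06). *DDX60*, a helicase of the antiviral response, had 372, 351, 315 and 281 in KO and 2.02, 3.68, 6.76 and 2.94 in WT (log2 fold change 6.17, SE 0.28, adjusted p = 6.5e-08). *IFIH1*, the RNA sensor MDA5, had 849, 893, 1333 and 1253 in KO and 55.6, 34, 43.4 and 32.3 in WT (log2 fold change 4.68, SE 0.21, adjusted p = 5.5e-08). The WT libraries were below 60 for all 3 genes and the KO libraries above 270. *TRIM22*, *IFIT2*, *OASL* and *SAMD9* rose by 5.43, 4.41, 3.94 and 3.66, and *RIGI*, the other RNA sensor, by 1.96. *IFI27*, *IFITM2* and *IFITM1* went the other way, with *IFI27* at 49.9, 51.4, 73.8 and 80.6 in KO and 647, 637, 788 and 652 in WT (log2 fold change -3.42, SE 0.17, adjusted p = 1.3e-07). The fall was 2.12 for *IFITM2* and 1.79 for *IFITM1* on the log2 scale. The signal transducer *STAT2* at 0.66 and the factor *IRF7* at -0.49 were not called, while *IRF1* rose by 2.01. The receptor chains *IFNAR1* and *IFNAR2* were at 0.26 and -0.18 and were not called.

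The promoters of *IFIH1* and *DDX60* are shown because these were 2 of the interferon-stimulated genes with the largest rises and both hold the element that interferon-activated factors bind, searched for as TTTC, 2 further bases and TTTC again on either strand. The 250 bases before the RefSeq start in GRCh38.p14 are chr2:162318685-162318934 for *IFIH1* and chr4:168318753-168319002 for *DDX60*, both on the minus strand and written 5′ to 3′ on that strand with the element in capitals.
IFIH1: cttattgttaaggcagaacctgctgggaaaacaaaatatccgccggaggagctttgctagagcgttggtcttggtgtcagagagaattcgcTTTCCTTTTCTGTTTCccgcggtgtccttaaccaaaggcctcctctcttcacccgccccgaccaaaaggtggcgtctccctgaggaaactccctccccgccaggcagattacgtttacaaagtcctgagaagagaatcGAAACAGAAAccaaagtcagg
DDX60: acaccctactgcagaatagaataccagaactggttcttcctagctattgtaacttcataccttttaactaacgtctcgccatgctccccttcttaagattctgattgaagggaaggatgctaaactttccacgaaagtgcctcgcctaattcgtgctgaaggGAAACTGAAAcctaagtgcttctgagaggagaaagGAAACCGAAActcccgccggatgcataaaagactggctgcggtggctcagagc
*IFIH1* holds 3 matches, of which 2 overlap, and *DDX60* holds 2. The element was found in 9 of 17 promoters of interferon genes that rose in both KO clones and in 7 of 8 promoters of interferon genes tested that were not called in both. Among all genes it was found in 4.27% of 1007 promoters of genes that rose in both, 2.22% of 11310 promoters of genes tested and 3.02% of those in the table. Within the interferon list the share was no higher among the genes that rose than among those not called in both.

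Genes that load peptides onto MHC class I molecules for display to T cells rose as well. Of 18 tested, 10 rose in both KO clones and none fell in both. *PSMB9*, a subunit of the immunoproteasome, had 1877, 2042, 2199 and 2179 normalized counts in KO and 214, 161, 246 and 261 in WT libraries (log2 fold change 3.25, SE 0.14, adjusted p = 4.8e-08). *B2M*, the shared light chain, had 17075, 18272, 25417 and 26008 in KO and 7345, 7276, 7272 and 7612 in WT (log2 fold change 1.53, SE 0.13, adjusted p = 6.9e-06). *TAPBPL*, *HLA-B* and *PSMB10* rose by 2.19, 1.95 and 1.87, where *HLA-B* is uncertain because HLA genes share reads with each other. The peptide transporters *TAP1* at 0.66 and *TAP2* at 0.93 were not called. Among markers of immune cells, which can carry such transcripts, *CD3D* and *MS4A1* were at 0 in all libraries, and *PTPRC*, *CD68* and *CD3E* reached no more than 2.80, 2.82 and 6.76. *CD4* and *CD8A* reached 503 and 44.8 and were not called in both KO clones, with *CD4* at 387, 331, 18.7 and 5.76 in KO and 142, 154, 503 and 468 in WT libraries. *LYZ*, *CD14* and *ITGAM* rose in both KO clones, by 2.66, 2.17 and 3.59, and *CSF1R*, under the filter, reached 28.4. Their part in the result was not tested.

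More of the secreted immune signals tested rose than fell. Of 30 chemokines and cytokines listed, 13 passed the filter, of which 7 rose and 1 fell in both KO clones. *CSF2* and *CCL2* passed it only through their KO values, so the share of rises is fixed in part. *CSF2*, the growth factor GM-CSF, had 279, 319, 379 and 592 normalized counts in KO and 7.08, 2.76, 2.90 and 6.85 in WT libraries (log2 fold change 6.09, SE 0.33, adjusted p = 2.2e-07). *CCL2*, which attracts monocytes, had 154, 153, 198 and 201 in KO and 1.01, 8.27, 9.65 and 0.98 in WT (log2 fold change 5.31, SE 0.56, adjusted p = 3.2e-05). *CX3CL1* and *IL32* rose by 4.28 and 3.03. *CXCL14* was the exception, with 2.82, 11, 10.3 and 13.4 in KO and 1267, 1117, 1237 and 1169.5 in WT (log2 fold change -7.01, SE 0.36, adjusted p = 2.1e-07), a chemokine that WT cells made and KO cells nearly lost. Of 16 NF-κB genes, 5 rose in both clones, namely the feedback genes *BIRC3*, *TNFAIP3* and *CYLD* with *TNFAIP2* and *TRAF1*, by 3.77, 1.87, 1.17, 1.74 and 1.40. The subunits *RELA* at -0.027 and *NFKB1* at -0.13 were not called.

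**Figure D2:**
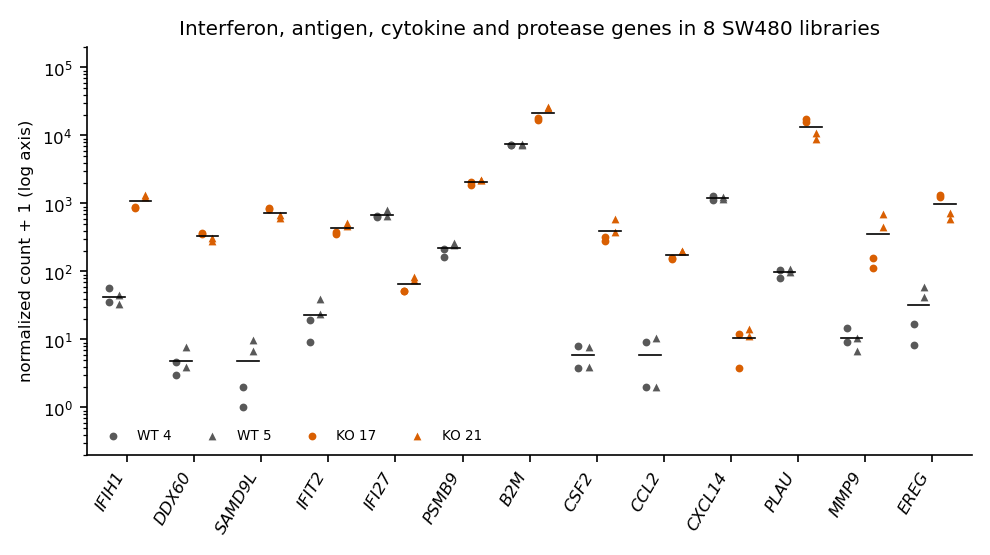
Normalized counts plus 1 on a log axis in the 8 SW480 libraries, with symbols as in the plot of WNT target genes. KO libraries lie above WT libraries for 11 of the 13 genes and below them for *IFI27* and *CXCL14*.

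Enzymes that act on the extracellular matrix formed another group of risen genes, with 11 higher and 1 lower of 25 tested. *PLAU*, the plasminogen activator urokinase, had 15726, 17285, 8980.0 and 10797 normalized counts in KO and 104, 78.1, 107 and 96.9 in WT libraries (log2 fold change 7.04, SE 0.20, adjusted p = 5.6e-09). Its receptor *PLAUR* rose too, as given above. *MMP17* had 597, 528, 556 and 459 in KO and 21.2, 11.9, 6.76 and 10.8 in WT (log2 fold change 5.39, SE 0.28, adjusted p = 1.5e-07). *MMP9*, a gelatinase, had 157 and 113 in KO 17, 703 and 444 in KO 21 and 8.09, 13.8, 9.65 and 5.87 in WT (log2 fold change 4.78, SE 0.54, adjusted p = 5.5e-05). All KO libraries were above WT, although KO 17 minus KO 21 was -2.06 on the log2 scale (adjusted p = 2.5e-04). The inhibitor *TIMP4* rose by 4.61, and *ADAM19* was the member that fell.

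Of 31 listed genes of blood coagulation, 17 passed the filter. Among these, 10 rose in both KO clones and none fell in both, with a median of 2.14. *F2RL3* passed the filter only through its KO values, as would any listed gene silent in WT, so the share of rises is fixed in part. *F3*, the tissue factor that starts coagulation, had 1896, 1929, 2061 and 2246 normalized counts in KO and 233, 239, 235 and 291 in WT libraries (log2 fold change 3.02, SE 0.096, adjusted p = 5.7e-09). *F2RL3*, a thrombin receptor, had 219, 248, 281 and 324 in KO and 2.02, 0.92, 4.83 and 0.98 in WT (log2 fold change 6.54, SE 0.35, adjusted p = 2.0e-07). *P2RY2*, a nucleotide receptor, and *VWF*, von Willebrand factor, rose by 3.58 and 2.98. *VWF* is also a marker of endothelium, and the sum of 6 endothelial markers was 186 to 283 in KO and 111 to 202 in WT, with 4 of them under 10 in all libraries. Of 19 listed prostaglandin genes, 9 passed the filter and 5 of these rose in both. Among them were the prostaglandin transporter *SLCO2A1*, the receptors *PTGER4* and *PTGER2*, and *PTGS1*, which rose by 4.01, 3.42, 3.38 and 2.77.

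Integrins, which tie cells to the matrix, had 10 members higher and 1 lower of 22. *ITGB3* had 154, 169, 128 and 129 normalized counts in KO and 3.03, 0.92, 1.93 and 1.96 in WT libraries (log2 fold change 5.66, SE 0.27, adjusted p = 9.3e-08). *ITGB8*, *ITGAM* and *ITGAX* rose by 4.47, 3.59 and 3.22, the last 2 being known from myeloid cells, and the collagen receptor *ITGA1* fell by 3.01. Of 30 laminins and collagens, 10 rose and 2 fell in both. The hemidesmosomal collagen *COL17A1* and the chains *COL6A3*, *COL7A1* and *COL6A2* rose by 4.89, 3.50, 3.42 and 2.92. *COL1A2* and *COL4A2* fell by 5.77 and 1.78.

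Ligands of the EGF receptor rose in parallel. Of 11 members of this family tested, 8 rose in both KO clones, and all of these were ligands. *EREG* had 1309, 1257, 598 and 720.0 normalized counts in KO and 16.2, 7.35, 57.9 and 41.1 in WT libraries (log2 fold change 5.23, SE 0.58, adjusted p = 6.9e-05). *BTC*, *AREG* and *NRG4* rose by 6.13, 3.05 and 2.68, while the receptors *EGFR*, *ERBB2* and *ERBB3* had log2 fold changes of 0.82, -0.22 and 0.04 and were not called. Of 14 genes of the FGF family, 6 fell and 2 rose in both (42.9% and 14.3%, beside 5.13% and 9.08% of all genes tested). *FGF19*, an intestinal hormone, had 4106, 3500.1, 3940.2 and 4215 in WT, 8.47 and 20.2 in KO 17 and 83.1 and 121 in KO 21. Its neighbour *FGF3* had 522, 423, 387 and 334 in WT, 1.88 and 1.83 in KO 17 and 45.8 and 23 in KO 21. Both were lower in KO 17 than in KO 21, by 2.84 (adjusted p = 0.0036) and 3.55 (adjusted p = 3.1e-07) on the log2 scale. *FGF20* and *FGF9* fell by 6.64 and 4.43.

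Pathways next to WNT were split, where 9.08% of all genes tested rose and 5.13% fell in both KO clones. In the TGF-β list 6 of 21 rose (28.6%) and 1 fell (4.76%). *FST*, *INHBB* and *LTBP3* were up by 5.50, 4.96 and 1.92 and the inhibitor *SMAD7* was down by 1.72. In the BMP list 4 of 21 rose (19.0%) and 5 fell (23.8%). The ligands *BMP6* and *BMP7* fell by 4.83 and 3.80, the pseudoreceptor *BAMBI* by 3.85 and the helix-loop-helix factor *ID2* by 4.28. The antagonist *NOG*, the inhibitor *SMAD6* and *ID1* rose by 3.35, 2.97 and 1.73. In the Notch list 4 of 20 fell (20%) and 3 rose (15%). The effectors *HEY2* and *NRARP* were down by 4.52 and 3.12 and the ligand *DLL1* up by 1.73, whereas *HES1* was at -0.0068 and was not called. Among semaphorins, netrins, slits and their receptors 8 of 33 rose (24.2%) and 3 fell (9.09%). *SEMA5A* and *SLIT1* were down by 6.73 and 5.55 and *NTN4* and *PLXNA4* up by 4.70 and 4.37.

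Genes of intestinal identity moved in both directions. Of 15 stem cell genes, 6 fell in both KO clones and *CD44* rose, and 5 of those that fell were also on the WNT lists. The other was *MSI1*, an RNA-binding protein, which fell by 2.84. Of 15 gut transcription factors, 4 fell and 3 rose (26.7% and 20%, beside 5.13% and 9.08% of all genes tested). *CDX2*, the master factor of the hindgut epithelium, had 52.7, 65.1, 165 and 142 normalized counts in KO and 881, 857, 1333 and 1315 in WT libraries (log2 fold change -3.49, SE 0.36, adjusted p = 3.8e-05). *ELF3* and *KLF4*, factors of differentiated epithelium, rose by 3.49 and 2.49, and *GATA6* by 1.84, while *HNF4A* at -0.28 was not called.

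Of 30 goblet and secretory genes listed, 11 passed the filter, of which 7 rose and 1 fell in both clones. *MUC2* passed it only through its KO values, as would any listed gene silent in WT. The share of rises is thus fixed in part. The trefoil factor *TFF2* had 248, 221, 407 and 364 normalized counts in KO and 26.3, 10.1, 15.4 and 13.7 in WT libraries (log2 fold change 4.20, SE 0.29, adjusted p = 1.4e-06). *MUC13*, a membrane mucin, rose by 3.51. *MUC2*, the main mucin of goblet cells, remained low, with 64.9, 58.7, 18.7 and 18.2 in KO and 4.04, 1.84, 3.86 and 0.98 in WT (log2 fold change 3.35, SE 0.51, adjusted p = 3.6e-04). The member that fell was *FCGBP*, by 1.62. 6 of 26 absorptive enterocyte genes passed the filter, of which *CEACAM1* and *ANPEP* rose by 4.74 and 2.23.

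Keratins, the intermediate filaments of epithelium, were exchanged, with 6 higher and 3 lower of 15. *KRT23* had 48, 51.4, 188 and 224 normalized counts in KO and 8013, 7885, 5979.8 and 6209 in WT libraries (log2 fold change -6.09, SE 0.50, adjusted p = 1.6e-05). *KRT7* had 1500.3, 1787, 2113 and 2628 in KO and 96, 67.1, 38.6 and 45 in WT (log2 fold change 5.06, SE 0.28, adjusted p = 3.7e-07). *KRT16* and *KRT81* rose by 3.37 and 3.35, although hair keratins such as *KRT81* and *KRT86* are near-identical in sequence and their reads may be shared. *KRT8* at 0.097 and *KRT18* at -0.17 were not called. Of 15 genes that mark epithelial or mesenchymal state, 7 rose and 1 fell. Both states were among the risen genes, with the mesenchymal *SNAI2* and *VIM* up by 4.39 and 1.21 and the epithelial splicing factor *ESRP1* by 1.37, while its relative *ESRP2* was the member that fell, by 2.13. The epithelial *EPCAM* was at -0.99 (adjusted p = 0.0039), just under the size a call required. Of the 18 tight junction genes tested, 6 rose in both clones, all of them claudins, with *CLDN16* and *CLDN7* at 2.59 and 2.47, while occludin *OCLN* fell by 2.20.

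Of 33 HOX genes, 5 fell in both KO clones (15.2%, beside 5.13% of all genes tested) and none rose in both. Most of those that fell were of the HOXB cluster. *HOXB2* had 63, 65.1, 121 and 148 normalized counts in KO and 759, 710.3, 624 and 559 in WT libraries (log2 fold change -2.81, SE 0.27, adjusted p = 1.5e-05). *HOXB8*, *HOXB9* and *HOXB5* fell by 1.39, 1.36 and 1.14. Among 29 nuclear receptors, 5 rose and 4 fell (17.2% and 13.8%, beside 9.08% and 5.13% of all genes tested). Beside *PPARG*, *THRB* and *NR2F1* these included *RORA* and *PPARD*, which fell by 4.08 and 2.0. *SOX4*, a progenitor factor, fell by 3.60, the one member called in both of 9 SOX genes tested (11.1%).

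Genes of lipid and sugar metabolism were called in both directions. Of 32 genes of cholesterol and fatty acid synthesis, 5 fell (15.6%, beside 5.13% of all genes tested) and 1 rose in both KO clones, with a median of -0.67. The cholesterol synthesis enzyme *HMGCS1* fell by 1.16, *SQLE* by 1.27 and *ACSS2* by 1.86, while the fatty acid elongase *ELOVL6* rose by 1.19. The cholesterol exporters *ABCA1* and *ABCG1* rose by 5.46 and 4.12, where *ABCA1* had 718, 789, 584 and 501 normalized counts in KO and 8.09, 8.27, 27 and 17.6 in WT libraries. Of 34 glycolysis and hypoxia genes, 5 rose (14.7%, beside 9.08% of all genes tested) and *SLC2A3* fell, with *CA12* and *LOX* up by 3.42 and 1.92.

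Genes of DNA replication and mitosis were not called in both clones. None of 39 genes of DNA replication and none of 35 genes of mitosis passed, with medians of -0.19 and -0.34. The mitotic median was -0.07 in KO 17 and -0.73 in KO 21. *MKI67*, the proliferation marker Ki-67, had 14107 and 14626 normalized counts in KO 17, 5117 and 6996 in KO 21 and 14104, 14797, 17349.5 and 14146 in WT libraries. It fell in KO 21, by 1.33 on the log2 scale (adjusted p = 7.5e-06), was at -0.067 in KO 17, and KO 17 minus KO 21 was 1.26 (adjusted p = 1.7e-04).

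Because senescence of SW480 KO clones in prolonged culture is described in the study, senescence genes were listed too. Of 18 tested, 9 rose in both KO clones (50%, beside 9.08% of all genes tested) and none fell in both. Several of these are shared with the protease and cytokine lists. The cell cycle inhibitor *CDKN2B* had 1839.8, 1896, 2618 and 2721 normalized counts in KO and 491, 484, 406 and 422 in WT libraries (log2 fold change 2.31, SE 0.14, adjusted p = 4.5e-07). *CDKN2A*, the gene of p16, had 4166, 4265, 6978 and 6849 in KO and 2134, 2068, 1884 and 1855 in WT (log2 fold change 1.45, SE 0.17, adjusted p = 9.0e-05). *CDKN1A*, the gene of p21, was at 0.19 and was not called, nor was lamin B1 *LMNB1* at -0.50, nor *GLB1*, the gene of the lysosomal β-galactosidase, at 0.33. Of 15 D cyclins and CDK inhibitors, 3 rose and 1 fell in both (20% and 6.67%, beside 9.08% and 5.13% of all genes tested). *CDKN1C* fell by 2.36 and *CCND2*, with *CDKN2A* and *CDKN2B*, rose. *CCND2* had 824, 895, 623 and 649.9 in KO and 72.8, 95.6, 299 and 418 in WT (log2 fold change 2.10, SE 0.52, adjusted p = 0.0098), and for KO against WT its call was lost without KO 17 (adjusted p = 0.11), without KO 21 (adjusted p = 0.080), with the reads of each clone summed (adjusted p = 0.084) and with no filter (adjusted p = 0.052), and the log2 fold change was 1.06 without WT 4 and 3.13 without WT 5.

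Of 27 p53 targets, *GDF15* and *TNFRSF10C* rose in both clones, by 1.91 and 1.38, and none fell in both. Their share of 7.41% was below the 9.08% of all genes tested. None of 15 BCL2 family genes, 32 ribosome biogenesis genes and 15 housekeeping genes was called in both. Of 12 tested genes of the MYC network, 1 rose and 1 fell in both (8.33% each, beside 9.08% and 5.13% of all genes tested). *MYCL* fell by 1.69 and *MXD4*, which opposes MYC, rose by 1.86.

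A smaller set of genes separated the KO clones from each other. Between KO 17 and KO 21, 752 genes were called (4.61% of those tested), beside 1.97% between WT 4 and WT 5. 246 genes changed in both KO clones in the same direction and also differed between them. 605 genes were called in KO 17 and not in KO 21, but 392 of these had a log2 difference over 0.5 in the same direction in KO 21, and 151 differed between the clones by the test. Of 887 genes called in KO 21 alone, 584 had such a difference in KO 17 and 199 differed by the test.

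Among genes called in 1 KO clone, the largest differences between the clones were found for *GABRA3*, *SYT1* and *PDE2A*, higher in KO 17, and *CLEC11A*, *G0S2* and *KCNK1*, higher in KO 21. *CLEC11A*, a secreted growth factor of bone marrow stroma, had 166 and 172 normalized counts in KO 17, 2919 and 2785 in KO 21 and 168, 178, 171 and 189 in WT libraries (KO 17 minus KO 21 -4.07, adjusted p = 1.2e-12). *G0S2*, an inhibitor of fat breakdown, had 109 and 115 in KO 17, 1153 and 1288 in KO 21 and 37.4, 47.8, 211 and 281 in WT (-3.43, adjusted p = 1.1e-09). *PDE2A*, a cyclic nucleotide phosphodiesterase, had 1500.3 and 1477 in KO 17, 40.2 and 49.9 in KO 21 and 167, 106, 24.1 and 8.81 in WT (5.02, adjusted p = 2.0e-05). For these 3 genes 1 KO clone was far from all other libraries, whereas the other KO clone lay within or near the WT range. *GABRA3*, a GABA receptor subunit, had 468 and 585 in KO 17, 0 and 0.96 in KO 21 and 417, 433, 902 and 821 in WT (8.55, adjusted p = 3.2e-11). *SYT1*, a synaptic vesicle protein, had 187 and 224 in KO 17, 0 and 8.64 in KO 21 and 1067, 1229, 1360.0 and 1402 in WT (6.05, adjusted p = 0.021). *KCNK1*, a potassium channel, had 30.1 and 16.5 in KO 17, 261 and 219.8 in KO 21 and 124, 149.8, 161 and 176 in WT (-3.37, adjusted p = 1.0e-07). The first 2 of these were nearly lost in KO 21 and kept over 100 normalized counts in KO 17. In KO 17 *GABRA3* lay within the WT range, whereas *SYT1* was below every WT library, although that difference was not called.

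17 genes were called in both KO clones but in opposite directions. 2 of them are given as examples that were chosen after their values were seen. *HSD11B1*, which activates cortisol, had 0 and 0.92 normalized counts in KO 17, 135 and 127 in KO 21, 3.03 and 5.51 in WT 4 and 42.5 and 44 in WT 5. *NLRP3*, an inflammasome sensor, had 83.7 and 54.1 in KO 17, 0 and 0 in KO 21, 17.2 and 17.5 in WT 4 and 3.86 and 0.98 in WT 5. For both genes the WT clones also lay apart, and the mean of the WT clones fell between the KO clones.

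Clone differences also ran along chromosomes. Of 261 windows of 10 Mb with at least 20 genes tested, 9 had a median difference over 0.3 in size on the log2 scale between the KO clones and 10 between the WT clones. All 9 between the KO clones lay on chromosomes 13 and 20, and 9 of the 10 between the WT clones on chromosomes 13 and 14, the other being on chromosome 3 from 190 to 200 Mb (median log2 difference -0.31). The others lay on 4 segments of chromosomes 13, 14 and 20, whose limits were chosen after the window medians were seen. On chromosome 13 from 20 to 60 Mb, 183 genes had a median of -0.54 for KO 17 minus WT 5 and 0.43 for KO 21 minus WT 4, but -0.046 for KO 17 minus WT 4 and -0.035 for KO 21 minus WT 5. From 70 to 120 Mb, 109 genes showed the opposite signs, with 0.46 for KO 17 minus WT 5 and -0.52 for KO 21 minus WT 4. For chromosome 13, KO 17 was thus like WT 4 and KO 21 like WT 5. On chromosome 14 from 70 to 110 Mb, WT 4 was higher than WT 5 by a median of 0.36 over 256 genes, and both KO clones were like WT 5. On chromosome 20 up to 20 Mb, 115 genes were lower in KO 21, with medians of -0.56 and -0.57 against the WT clones, beside -0.0088 and -0.01 for KO 17. DNA copy number was not measured in these libraries. The segments hold 4.06% of the genes tested, 4.01% of those called in both KO clones (93 genes), 7.45% of those called between the KO clones (56) and 6.83% of those called between the WT clones (22). For KO against WT, 7 windows had a median over 0.3 in size. On chromosome 18 from 10 to 20 Mb it was -0.32 in KO 17 and -0.34 in KO 21. On chromosome 11 from 100 to 110 Mb it was 0.34 and 0.35, and on chromosome 20 from 10 to 20 Mb -0.072 and -0.66. The windows on chromosomes 18 and 11 lie outside the segments.

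The knock-out effect in SW480 was set against that in HT29 and HCT116, the other colorectal carcinoma lines of the series, each with 4 KO and 4 WT libraries from 2 clones per genotype made in the same way, by a test of the difference of the effects across all 24 libraries. It differed from HT29 for 12.3% and from HCT116 for 10% of the genes tested. Of the 2320 genes that held in both SW480 KO clones, 1385 differed from HT29 and 1245 from HCT116, and 957 lay beyond both lines in the SW480 direction, 521 among the risen and 436 among the fallen genes. Calls in SW480 entered both counts, so a higher share than among all genes is fixed in part by the choice of the genes. The share of all genes tested that lay beyond both lines was not computed. A gene hardly expressed in another line cannot fall there, and the 436 fallen genes were not split by their level in the other lines. *CXCL14*, for example, had log2 fold changes of 0 in HT29 and HCT116. The 957 genes are thus not a count of responses found in SW480 alone.

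Among the WNT targets the study names, differences between lines were uneven. The log2 fold change of *CTNNB1* was -5.54 in SW480, -4.33 in HT29 and -5.77 in HCT116, and the difference from HT29 was -1.21 (adjusted p = 6.8e-05). For *AXIN2* the values were -4.74, -3.70 and -5.25, and neither difference was called (adjusted p = 0.35 and 0.71). *ASCL2*, whose size in SW480 depends on the added count, was at -4.08 in HT29 and 0.41 in HCT116, and its effect was called different from both (adjusted p = 0.0039 and 4.7e-07). The HCT116 value is of the size that a few reads in a single library give. Where a gene is hardly expressed it cannot fall, so a different response to the knock-out in HCT116 cannot be read from this call. For *NR2F1* they were -3.30, -2.86 and -2.02 (adjusted p of the differences 0.71 and 0.24). For *BMP4* they were -1.99, -1.19 and -4.34 (adjusted p 0.42 and 0.011), and for *ADAM19* -2.47, -2.41 and -3.61 (adjusted p 0.97 and 0.31). For *RNF43* they were -2.96, 0.0099 and -4.76 (adjusted p 4.0e-06 and 0.0016), and for *MYC* -0.80, -0.079 and -0.49 (adjusted p 0.018 and 0.38), where neither difference reached 1 in size.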

How the data were processed

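RNA of 24 libraries from *CTNNB1* KO and WT clones of SW480, HT29 and HCT116 cells was sequenced with the TruSeq RNA v2 kit, which does not keep strand. The authors aligned reads with STAR 2.7.5b to GRCh37, counted them per gene with featureCounts 2.0.1 and deposited normalized counts, a signal obtained by dividing each read count by 1 DESeq2 size factor per library (Galaxy version 2.11.40.6). All values were whole multiples of what 1 read is worth in their library (100% within a tolerance of 0.01), so reads were recovered for the count tests and for depth, which was 22297049 to 29068378 assigned reads over the 24 libraries. The deposited tables of the authors' own comparisons, with log2 fold changes and p-values, were not used.

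Groups came from the sample titles. The main test was limma 3.58.1 (trended, robust) in R 4.3.3 on log2(normalized count + 1) with Benjamini-Hochberg adjustment, with 1 mean per genotype for KO against WT and 1 mean per clone for contrasts of clones. Genes with at least 10 in at least 4 of the 8 SW480 libraries were tested. Lines were compared in a fit of all 24 libraries with 1 mean per line and genotype, over 18609 genes with at least 10 in at least 4 libraries. A call required an adjusted p under 0.05 and a log2 fold change over 1 in size. Rounds A and B are biological replicates of the same clones, so genotype was tested over 4 libraries from 2 clones, and clone contrasts over the spread between rounds. DESeq2 1.42.0 and edgeR 4.0.16 on the recovered reads, other pseudocounts, filters and scaling, the round as a block, and leaving out libraries or clones were alternatives, and the fits were tested on simulated data. Gene annotation was GENCODE 44 with GRCh37 coordinates, and 95.8% of 58051 gene identifiers matched. Promoter sequences came from RefSeq.

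The comparison and the gene lists were chosen with earlier results of these data known. Genes were named by rule, as *CTNNB1* and the targets the study names, the 8 largest rises and falls in log2 and the 5 in normalized counts among non-overlapping genes with a mean of at least 100 called in both KO clones, up to 4 called members per list and direction with members that did not pass, and the 3 largest differences between KO clones in each direction. *NKD2*, *ZNRF3*, *MSI1*, *CYLD*, *IFIT2*, *OASL*, *SAMD9*, *RIGI*, *IRF1*, *B2M*, *VIM*, *ESRP1*, *HOXB5*, *FGF18*, *MKI67*, *HSD11B1* and *NLRP3* were added after their values were seen. Some genes that the rule names are not reported here.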

Additional observations from a re-analysis of the deposited data

Results flagged for a closer look

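A library that stood apart from the other 3 of its genotype by Dixon's criterion was found in 17 of 464 groups of 4 libraries over 232 genes named above, where chance alone gives about 1 in 20 groups. In KO 21A, *ACSS2* at 1623, *CX3CL1* at 462 and *IFITM1* at 393 normalized counts were above the other KO libraries, and *WNT9A* at 1058 and *ZNRF3* at 551 were below them. *TIMP4* was low in KO 21B, at 283. *PLXNA4* at 205 and *WNT11* at 44.2 were high in KO 17A. Among WT libraries, *HLA-B* was high in WT 4A at 1565 and *GDF15* was low in WT 4B at 95.6. In WT 5A, *IFI27* at 788, *STAT2* at 1178 and *TCF7L2* at 712 were high and *CSNK1A1* at 5539 was low. In WT 5B, *F3* at 291 and *PTGER2* at 10.8 were high and *ID2* at 8546 was low. The *CSNK1A1* value alone lay within the range of the other genotype.

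Differences between the KO clones, by limma's test of KO 17 minus KO 21, covered 752 genes. Those named above were 8.55 for *GABRA3*, 6.05 for *SYT1*, 5.02 for *PDE2A* and 1.26 for *MKI67* on the log2 scale, and -4.07 for *CLEC11A*, -3.55 for *FGF3*, -3.43 for *G0S2*, -3.37 for *KCNK1*, -2.84 for *FGF19*, -2.24 for *APCDD1* and -2.06 for *MMP9*.

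The knock-out effect differed between SW480 and HT29 for 2291 genes and between SW480 and HCT116 for 1866. For *ASCL2* the SW480 effect minus the other was -3.79 for HT29 and -8.28 for HCT116, sizes that depend on the added count of 1. A different response in HCT116 cannot be read from the latter, since the gene was hardly expressed there. For *RNF43* it was -2.97 for HT29 and 1.80 for HCT116. For *CTNNB1* it was -1.21 for HT29 and for *BMP4* 2.35 for HCT116.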

How the results depend on the processing

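Of 166 alternative counts of called genes, 157 stayed within 1.5 times the reported count. A filter of 10 normalized counts in every library tests fewer genes and gave 1833 for KO against WT, 1864 for KO 17, 2087 for KO 21, 1449 for both clones, 456 for KO 17 against KO 21, 196 for WT 4 against WT 5, 903 for SW480 minus HT29 and 705 for SW480 minus HCT116. Testing against a log2 fold change of 1 with limma's treat gave 1450 for KO against WT. Leaving out 1 library at a time gave 2750 to 2866 for KO against WT, 2233 to 2331 for both clones, 572 to 816 between KO clones and 219 to 325 between WT clones. The count for both clones was 2102 to 2903 under the other alternatives, 2182 and 2102 with KO clones set against different WT clones, and 1963 where every pair of a KO with a WT clone had to differ by over 1. KO against WT gave 2870 genes with DESeq2 and 2864 with edgeR on recovered reads, 2568 with the clone as a random effect and 2402 with the reads of each clone summed.

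With the round as a replicate block 2825 genes were called for KO against WT and 2330 in both clones. Deviations of same-round libraries correlated at -0.041 to 0.13 between clones, over 0.1 in 1 of 6 pairs and negative in 3. The pairing was not used in the main test, although these correlations cannot show that a round effect is absent.

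Of 242 called genes named by the rule or in the text, 189 lost the call in none of the 25 alternatives that tested them. Under treat 52 lost it, with the reads of each clone summed 13 and with the clone as a random effect 6. A gene that an alternative filter removed was not tested there and was not counted as losing its call. *FCGBP* and *ELOVL6* lost it without WT 4. *NLRP3*, not called for KO against WT (0.13), was reversed without KO 17, at -2.91, and the cause is that the KO clones had opposite signs. The depth limits genes at or under 3 reads in a genotype, where no size can be given. Clones grown from 1 cell, 2 per genotype, limit what can be attributed to genotype.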
